A study of Apis mellifera carnica with 38 samples.

Results

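Gene expression was compared between the brains of queens that had received whole semen (SE) and of those that had received its sperm-free fluid (SF), and queens given Hayes solution (HS), the diluent of semen, supplied the reference level. The libraries were chosen by their labels as the 4 SE brains (queens S24, S27, S29 and S38) and the 2 SF brains (SP1 and SP76) that the study kept for its brain comparisons, which are 6 of its 18 brain libraries and of 38 libraries in all. The 5 HS brains (H51, H53, H73, H74 and H75) were fitted with them. All queens were unmated honey bees of the subspecies *Apis mellifera carnica*, raised as daughters of a single queen inseminated by a single drone, and each library came from the brain of 1 queen. All fluids were injected into the abdomen, outside the reproductive tract. For SF, semen was diluted with Hayes solution and spun to pellet the sperm, and the supernatant was injected. No dilution was given for the injected semen, so the amount of seminal fluid that reached SF and SE queens may have differed, and this cannot be told apart from the presence of sperm. The brain libraries S83 (SE) and SP16 (SF), which the study left out, and the 5 brains of virgin queens that were not injected (V) were not part of the main fit. They served as further reference levels and entered some of the alternative fits. The study dropped S83 and SP16 because very few of their reads came from deformed wing virus. It made this choice after a first analysis of its brains had called no genes. The identity of SP1 and SP16 is in doubt: the read totals and aligned shares that the study's sample table lists for them fit the counts deposited under the other name, while its viral shares fit the names as deposited. The deposited names were followed here, both libraries are SF brains, and the same doubt touches every SF value, the check in SP16 and the matching of SP1 with its fat body.

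Seminal fluid is the part of the ejaculate without sperm and carries proteins of the male accessory glands, and in insects such proteins are known to change female behaviour and physiology after mating. In honey bee queens, mating is followed by an end to mating flights, ovary growth and a changed pheromone blend, and the brain is one of the organs whose gene expression changes. Juvenile hormone, vitellogenin and the circadian clock are linked to behavioural state in this species, while vitellogenin, storage proteins and most humoral immune genes are made mainly in the fat body.

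Gene counts summed to 8699477 to 22557703 in each of the 11 brains. The reads that did not align to the bee genome made up 28.2 to 35.3% of each SE library and 38.9 to 39.7% of each SF library, without overlap, and 22.1 to 53.6% of the HS libraries. Also without overlap were the share of gene reads on mitochondrial genes (0.847 to 0.878% in SF, 0.946 to 1.24% in SE) and on the 100 genes with the most reads (23.1 to 23.9% in SF, 21.2 to 22.4% in SE), with exact permutation p = 0.133 and 0.0667. The part of these library differences in the results was not tested, beyond the fit with the unaligned share as a covariate. The difference of SE from SF in unaligned reads was -7.04 percentage points, with an exact two-sided permutation p = 0.0667, the smallest that 15 assignments of 6 libraries allow. In the libraries left out by the study the share was 4.05% (S83) and 6.08% (SP16). The library with the most unaligned reads was H51, above both SF libraries. The libraries were spread over 6 sequencing lanes, and only lane 6 held both an SE and an SF library (S27 and SP76), which is too few for a comparison within a lane.

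Of 9030 genes tested, 202 (2.24%) were differentially expressed (DEGs) between SE and SF brains at an adjusted p under 0.05 by edgeR's quasi-likelihood test with Benjamini-Hochberg adjustment, and 2006 (22.2%) had an unadjusted p under 0.05. Higher levels in SF were found for 163 DEGs (1.81%) and higher levels in SE for 39 (0.432%). The SF-high genes differed by a median of 1.98-fold and 80 of them by more than 2-fold, whereas the SE-high genes differed by a median of 1.30-fold and 0 of them by more than 2-fold. The SE and SF libraries did not overlap for any of the 202 DEGs, nor for 34.1% of all genes tested. For 167 of the 202 the adjusted p lay between 0.04 and the threshold. The split by direction depended on the scaling: when counts were scaled by library size without TMM factors, the median gene moved from 0.02 to 0.14 on the log2 scale of SE minus SF, and 559 genes were called higher in SE and 230 higher in SF.

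The count also depended on single libraries. Without SP76 there were 0 DEGs, with 1027 genes at an unadjusted p under 0.05, and without SP1 there were 91. Without one SE library there were 8 (S24), 41 (S27), 34 (S29) or 18 (S38). Leaving out an HS library gave 47 (H51), 182 (H53), 303 (H73), 353 (H74) or 109 (H75). With SP16 in place of SP1 there were 2 DEGs, *LOC410829* and *LOC410621*, both lower in SE, and 0 genes differed between SF and HS, with 563 at an unadjusted p under 0.05. With SP16 added there were 4 DEGs, and with the share of unaligned reads as a covariate there were 0, with 1660 genes at an unadjusted p under 0.05.

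**Figure D1:**
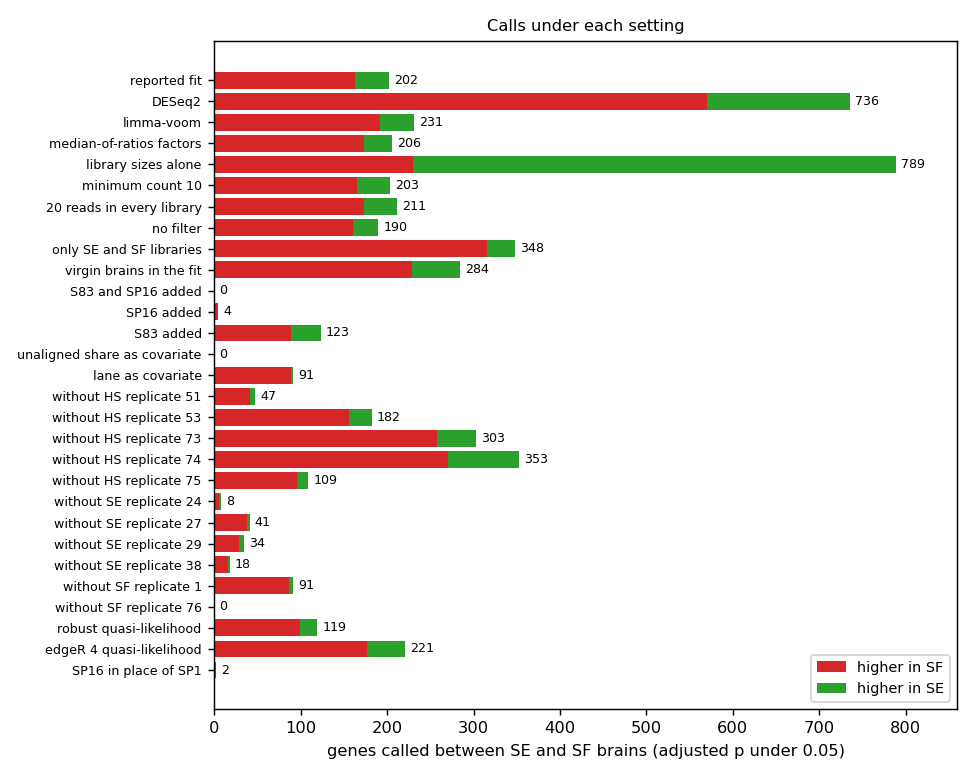
Number of genes called between SE and SF brains (x axis) under the reported fit and each alternative (y axis), split into genes higher in SF (red) and higher in SE (green). The reported fit gave 202 calls, and the alternatives ranged from 0 to 789.

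With HS as the reference, 716 genes (7.93%) differed between SF and HS and 112 (1.24%) between SE and HS. The 2 comparisons share the HS libraries. Each also shares its SF or SE libraries with the comparison of SE with SF, so the overlaps that follow are descriptions without a test. Of the 202 DEGs between SE and SF, 111 (1.23% of genes tested) also differed between SF and HS and not between SE and HS, and 12 (0.133%) differed between SE and HS and not between SF and HS. A further 2 differed from HS in both groups, and 77 in neither. In the 111 genes, SF lay above HS in 79 and below HS in 32. Missing the threshold does not show that SE left these genes unchanged, so the interval of SE minus HS was also used: for 80 of the 111 its 95% interval lay within 1.5-fold of HS, and 20 of the 111 had an unadjusted p under 0.05 for SE against HS. These 80 held 48 of the 79 genes above HS and all 32 of those below. The share of all genes tested with such an interval was not counted, so the 80 have no background beside them. In 56 of the 79 the estimate for SE lay below HS, and 15 of the 79 had an unadjusted p under 0.05 for SE against HS. The 111 became 0 without SP76, 5 without S24, 8 without S38, 27 without S27, 28 without S29, 41 without SP1, 32 without H51, 60 without H53, 71 without H75 and 210 without H73.

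**Figure D2:**
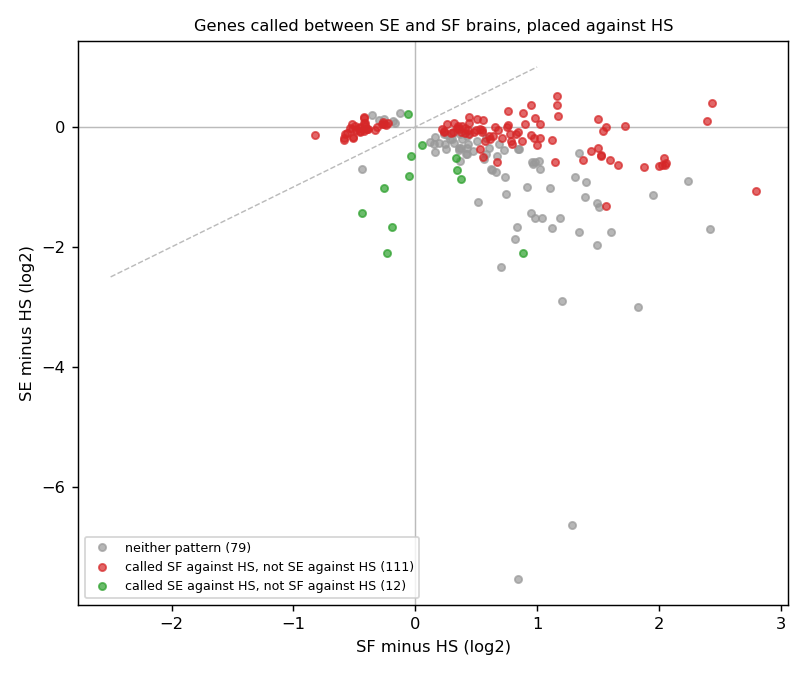
Log2 difference of SF from HS (x axis) and of SE from HS (y axis) for the 202 DEGs between SE and SF brains, 1 point per gene, with the dashed line at equal values. The 111 genes called only in SF (red) span -1.31 to 0.52 on the y axis, with 80 of their intervals within 1.5-fold of HS, and the 12 called only in SE (green) lie below 0 on it, apart from *LOC410394*.

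The smallest p between SE and SF was found for *LOC102653894* (chromosome 15, 6428354 to 6430526 in Amel_HAv3.1), for which the study's annotation gives the fly gene *Ude*, a uracil-DNA degrading factor. Its level was 84.2 and 103 CPM (read counts scaled to a common library size, with TMM factors) in SP1 and SP76, against 36.2, 41.1, 35.1 and 36.6 CPM in S24, S27, S29 and S38 and 40.8, 35.2, 52.9, 40.4 and 46.7 CPM in H51, H53, H73, H74 and H75. Both SF brains lay above all 9 other brains, and the SE and HS ranges overlapped. SE was 2.52-fold lower than SF (log2 -1.33, SE of the estimate 0.14, adjusted p = 0.00894), and SE minus HS was -0.21 with a 95% interval from -0.46 to 0.03. In SP16, however, the level was 37.8 CPM, within the HS range.

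Genes of serine protease cascades and of pathogen recognition were among those called above HS in SF and not called in SE. *LOC724250*, which the study annotates as serine protease snake, an enzyme type of the cascades that activate immune and clotting responses in insects, was at 7.07 and 9.29 CPM in the SF brains. It was between 1.42 and 3.03 CPM in the SE brains and between 0.968 and 2.17 CPM in the HS brains, so that the SF brains stood apart while SE and HS overlapped. SF was 5.42-fold higher than HS (adjusted p = 0.00284) and 4.09-fold higher than SE (adjusted p = 0.0209). Its neighbour *LOC724208*, annotated as snake-like, was at 462 and 882 CPM in SF, 173 to 326 CPM in SE and 151 to 309 CPM in HS, and was 2.94-fold higher in SF than in SE (adjusted p = 0.0475). Both genes were assigned the same fly gene, and reads of near-identical copies could be split between them. High levels also occurred without injection, in the V brains C20 and C49, which held 34.3 and 25.1% unaligned reads. There *LOC724250* was at 3.55 and 4.67 CPM and *LOC724208* at 378 and 502 CPM, above all SE and HS brains. C64, C68 and C77 were at 1.31 to 2.37 CPM and 156 to 239 CPM.

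*LOC724703* (serine protease 49, with the fly modular serine protease *modSP*, which acts at the head of the Toll cascade, as ortholog) was at 154 and 199 CPM in SF, 89.1 to 109 CPM in SE and 73.2 to 115 CPM in HS. It was 1.78-fold higher in SF than in SE (adjusted p = 0.0442), and the interval of SE minus HS ran from -0.13 to 0.44. *LOC725832*, beta-1,3-glucan recognition protein 2, which belongs to a family that binds fungal and bacterial cell walls, was at 63.3 and 103 CPM in SF, 13.4 to 31.1 CPM in SE and 16.6 to 53.3 CPM in HS. It was 3.99-fold higher in SF than in SE (adjusted p = 0.0475) and 2.87-fold higher than in HS (adjusted p = 0.0406). H73 came closest to the SF brains. The antimicrobial peptide gene *Def1* (defensin) was called between SE and SF (7.15-fold, adjusted p = 0.0479) but in neither group against HS. Its level was 1354 and 3051 CPM in SF, 213 to 443 CPM in SE and 238 to 1710 CPM in HS, so that HS overlapped both groups.

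*Obp14* (chromosome 15, 1924191 to 1926002), a member of the odorant-binding protein family of small carriers of hydrophobic ligands, was at 202 and 267 CPM in SF. It was at 24.2, 24.7, 48.2 and 93.6 CPM in S24, S27, S29 and S38, and at 51.1, 32.3, 54.3, 37.1 and 48.1 CPM in the HS brains. The SF brains lay above all SE and HS brains, with S38 next among these. The V brains C20 and C49 were at 101.5 and 76.3 CPM, and C64, C68 and C77 at 43.7 to 52.8 CPM. SF was 5.27-fold above HS (adjusted p = 0.0132) and 4.91-fold above SE (adjusted p = 0.0442), while SE minus HS was 0.10 with an interval from -0.70 to 0.90, too wide to place SE within 1.5-fold of HS. SP16 was at 65.6 CPM.

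Further annotated genes raised in SF and not called in SE against HS were *LOC409533* (annexin-B9-like, of a family of calcium-dependent membrane-binding proteins, 1.40-fold between SF and SE), *LOC724654* (cytochrome b5 type B-like, 6.41-fold), *LOC411978* (myrosinase 1), *LOC413583* (ephexin), *LOC724295* (a regulatory subunit of protein phosphatase 1), *Ube2g1* (a ubiquitin-conjugating enzyme) and *Metrn* (meteorin). Their adjusted p for SE against SF lay between 0.0332 and 0.0499. In the V brains C20 and C49, *LOC409533* was at 955 and 906 CPM and *LOC724654* at 15.8 and 20.8 CPM. C64, C68 and C77 were at 469 to 562 CPM and 1.94 to 3.65 CPM. By contrast, *LOC413583* was at 69.8 and 83.2 CPM in C20 and C49 and 78.0 to 85.8 CPM in C64, C68 and C77. *Mrjp7*, a member of the major royal jelly protein family, was at 26.1 and 32.4 CPM in SF, against 16.5 to 18.5 CPM in SE and 13.3 to 22.1 CPM in HS. The annotation covered only part of the calls: 28 of the 202 had a symbol or a description, 25 of them higher in SF. The descriptions came from the study's lists, which hold mainly genes that changed in its fat bodies or brains, so the annotated genes are no even sample of the calls.

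**Figure D3:**
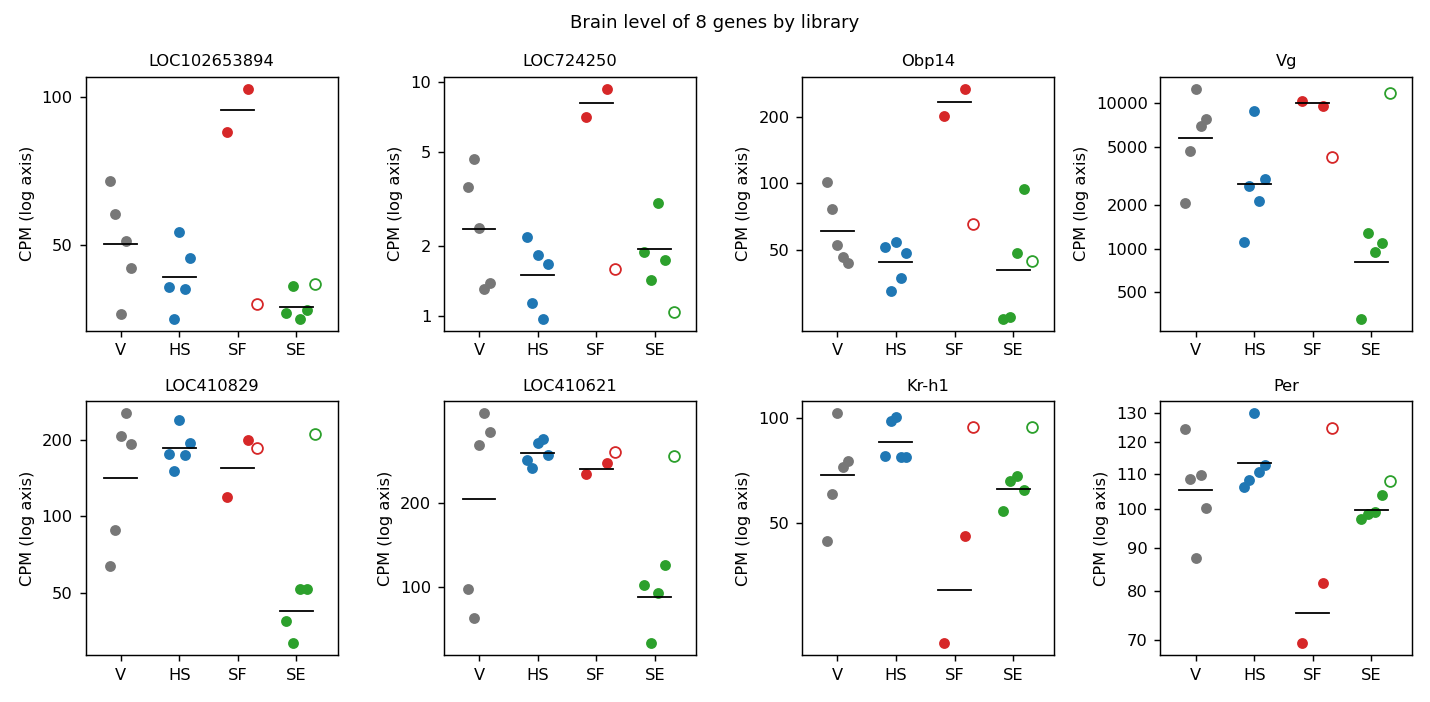
TMM-normalized CPM (y axis, log scale that does not start at 0) of 8 genes in 18 brain libraries grouped by treatment (x axis), with 1 point per queen, the geometric mean of the filled points as a line, and open circles for SP16 and S83. In the upper row the filled SF points lie above the filled SE points, and in each of these panels the open SF circle lies below the filled SF points.

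Several genes with their main site of expression outside the brain were higher in SF than in SE. *Vg* (chromosome 4, 5029485 to 5035661), which codes for the yolk precursor vitellogenin, was at 10390 CPM in SP1 and 9541 CPM in SP76, and at 326, 1267, 946 and 1091 CPM in S24, S27, S29 and S38. The HS brains spread from 1111 CPM in H51 over 2688 (H53), 2128 (H74) and 3000 CPM (H75) to 8841 CPM in H73. SF was 10.98-fold above SE (adjusted p = 0.0442), and neither group passed the test against HS (adjusted p = 0.161 for SF and 0.108 for SE). The order was reversed in the libraries that were left out, with 11846 CPM in S83 (SE) and 4245 CPM in SP16 (SF). Without injection, *Vg* was at 2044 and 4677 CPM in the V brains C20 and C49. In C64, C68 and C77 it was at 7016 to 12613 CPM, a range that includes the level of the SF brains. *A4*, an apolipophorin-III-like protein of hemolymph lipid transport, was 6.27-fold and *Akhr*, the receptor of adipokinetic hormone, which mobilizes fat body stores, 6.35-fold higher in SF than in SE (adjusted p = 0.0442 for both), and both were called in SF against HS. For both, H73 was the highest HS brain, and S83 was above SP16 (141 against 51.8 CPM for *A4*, 4.82 against 1.26 CPM for *Akhr*).

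The summed level of 6 fat body marker genes (*Vg*, *Tsf1*, *Hex110*, *Hex70a*, *HEX70b* and *Vhdl*) was, with all 18 brains scaled together, 22412 and 25132 CPM in the SF brains, 8672 to 9575 CPM in the SE brains and 8908 to 22408 CPM in the HS brains. It was 18362 CPM in S83, 10257 CPM in SP16 and 12204 to 21126 CPM in the V brains. Most of this sum came from *Vg* and *Tsf1*, so it says little of the other genes. *Vg* and *Tsf1* were at 10442 and 11904 CPM in SP1 and 9588 and 15464 CPM in SP76. In the SE brains they were at 327 to 1273 CPM and 7734 to 8283 CPM. Of the 6 genes 1 (*Vg*) was called and 3 had an unadjusted p under 0.05, all lower in SE, beside 2.24% called and 12.5% at that p and lower in SE over all genes tested. Among 5 muscle genes, 1 was called (*TpnCIIa*, a troponin C, 3.79-fold higher in SF, adjusted p = 0.0192) and 4 had an unadjusted p under 0.05, all lower in SE, with a summed level of 136 to 766 CPM in SF, 23.6 to 60.9 CPM in SE and 29.7 to 333 CPM in HS. *PPO*, a prophenoloxidase of hemocytes, was at 116 and 82.95 CPM in SF and 27.5 to 73.1 CPM in SE and was not called. The 5 neuron markers summed to 2053 and 2138 CPM in SF and 1854 to 2198 CPM in SE, and the 2 glia markers to 4182 and 4306 CPM in SF and 4323 to 5159 CPM in SE, with 0 called and 0 at an unadjusted p under 0.05. The 3 eye markers summed to 450 and 646 CPM in SF, 355 to 757 CPM in SE and 277 to 495 CPM in HS, with 0 called. Of 5 head gland genes 1 was called, higher in SF. Their sum was 70.6 and 76.3 CPM in SF, 46.6 to 54.3 CPM in SE and 35.7 to 410 CPM in HS. The part that fat body, muscle, eye, gland or blood cells in the dissected brains had in the calls was not tested, and in whole brains fewer cells of a type and less RNA per cell cannot be told apart.

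The V queens, which the comparison did not use, gave the level of each gene in fat body relative to brain. Of the SF-high DEGs, 161 were measured there, and 72 (44.7%) were over 4-fold higher in fat body than in brain, beside 5.90% of all genes tested. Over 4-fold higher levels in brain were found for 1 of the 161, beside 12.03% of all genes. The SE-high DEGs were placed at the other end, with 0 of 39 over 4-fold higher in fat body and 8 (20.5%) over 4-fold higher in brain. Of the 79 genes raised in SF only, 29 (36.7%) were over 4-fold higher in fat body. H73 was the highest of the 5 HS brains for 100 of the 163 SF-high DEGs (61.3%), and for 17.6% of all genes tested.

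The 32 genes lower in SF only differed from HS by a median of -0.44 on the log2 scale, beside 0.78 for the 79 raised genes, and a clock gene and hormone response genes were among them or close to the threshold. *Per* (period), a core gene of the circadian clock, was at 69.0 and 81.3 CPM in SF, 97.0, 98.2, 98.8 and 103 CPM in SE, and 106 to 129 CPM in HS. The 3 groups did not overlap, with SE between SF and HS. SF was 1.504-fold below HS (adjusted p = 0.00733) and 1.32-fold below SE (adjusted p = 0.0481), and the interval of SE minus HS ran from -0.34 to -0.04. With SP16 in place of SP1 the direction of SE against SF turned for *Per*, without a call. *Br-c* (Broad-complex), a transcription factor of the ecdysone response, was at 117 and 102 CPM in SF, 136 to 146 CPM in SE and 151 to 182 CPM in HS, in the same order, and was called between SE and SF (adjusted p = 0.0479). *Kr-h1*, a transcription factor induced by juvenile hormone, was at 22.3 and 45.6 CPM in SF, 53.9, 65.7, 67.7 and 61.6 CPM in SE and 76.7 to 100.1 CPM in HS. It was called in SF against HS (2.52-fold, adjusted p = 0.0132) but missed the threshold against SE (1.83-fold, adjusted p = 0.0703). In SP16 these 3 genes lay within the HS range, with *Kr-h1* at 94.5 CPM, *Per* at 125 CPM and *Br-c* at 163 CPM. Their lists did not move as a whole. Of 11 juvenile hormone and ecdysteroid genes, 1 was called in each direction, with a median of -0.07 for SE minus SF. At an unadjusted p under 0.05, 2 were lower and 2 higher in SE. The other of 2 clock genes, *Cry2*, was not called. It was at 25.5 and 22.4 CPM in SF, 17.9 to 26.4 CPM in SE and 17.9 to 22.5 CPM in HS.

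The other genes with low levels in SF had no description or were named by symbol only, as *Rfwd3*, a ubiquitin ligase of DNA repair in mammals. *LOC411811* was at 30.1 and 31.8 CPM in SF, 40.02 to 44.9 CPM in SE and 39.7 to 42.5 CPM in HS, a change of 1.40-fold between SE and SF that was among the smallest p in this direction (adjusted p = 0.0185). *LOC100577430* was at 152 and 147 CPM in SF, 198 to 251 CPM in SE and 193 to 209 CPM in HS (adjusted p = 0.0185). Its level was 37.8 CPM in SP16, 40.03 CPM in S83 and 35.4 to 41.8 CPM in the V brains C64, C68 and C77, which held 4.24 to 5.37% unaligned reads. In the V brains C20 and C49, with 34.3 and 25.1% unaligned reads, it was 270 and 207 CPM.

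Of the 12 genes that passed the test in SE and not in SF against HS, 11 were lower in SE than in HS. The 95% interval of SF minus HS lay within 1.5-fold for only 6 of the 12, so that some of the 12 may also differ in SF. *LOC410829* (chromosome 2, 13397461 to 13427364) was at 38.5, 31.5, 51.7 and 51.7 CPM in the SE brains, 119 and 198 CPM in the SF brains and 150.3 to 238 CPM in the HS brains. All 4 SE brains lay below all others. SE was 4.29-fold below HS (adjusted p = 0.000409) and 3.66-fold below SF (adjusted p = 0.0131). *LOC410621* (chromosome 15, 5251503 to 5255029) was at 101, 62.6, 94.8 and 119 CPM in SE, 251 and 275 CPM in SF and 265 to 336 CPM in HS, and was 3.19-fold lower in SE than in HS (adjusted p = 0.000363). The adjacent *LOC724421* (chromosome 15, 5255226 to 5265494) was at 78.4 to 141 CPM in SE, 759.9 and 1206 CPM in SF and 297 to 1158 CPM in HS, and the library kit did not mark strand, so reads at the border of both genes cannot be assigned with certainty.

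*LOC410187*, an esterase E4-like gene of the carboxylesterase family, was at 46.7 to 74.8 CPM in SE, 115 and 113 CPM in SF and 131 to 174 CPM in HS, so that SF lay between the other groups, with SF minus HS from -0.80 to -0.08. It was 2.69-fold lower in SE than in HS (adjusted p = 0.000363) and 1.98-fold lower than in SF (adjusted p = 0.0239). *LOC411253*, a scavenger receptor class C gene, whose fly counterparts bind bacteria on phagocytes, was at 223 to 347 CPM in SE, 480 and 455 CPM in SF and 499 to 621 CPM in HS, 2.02-fold lower in SE than in HS (adjusted p = 0.00169). The SE library left out by the study did not show these low levels. S83 was at 211 CPM for *LOC410829*, 293 for *LOC410621*, 157 for *LOC410187* and 514 for *LOC411253*, all within the HS range, and SP16 was at 185, 304, 213 and 544 CPM. Among the V brains, C20 and C49 were low for all 4 genes: 63.6 and 88.0 CPM for *LOC410829*, beside 192 to 255 CPM in C64, C68 and C77. Whether these levels go with the source of the unaligned reads was not tested.

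*LOC724187* was the 1 gene called against HS in opposite directions. Its level was 25.6 and 27.1 CPM in SF, above HS (12.5 to 21.1 CPM; adjusted p = 0.0414), and 8.76 to 11.03 CPM in SE, below HS (adjusted p = 0.0328). S83 was at 25.1 CPM and SP16 at 20.3 CPM. *LOC408272* (monocarboxylate transporter 7, which carries small organic acids such as lactate in related proteins) was lower than HS in both groups, and lower still in SE: 34.5 to 38.6 CPM in SE, 44.2 and 44.7 CPM in SF and 57.9 to 62.3 CPM in HS, with no overlap of the 3 groups. SE was 1.63-fold below HS (adjusted p = 5.27e-05). S83 was at 65.5 CPM and SP16 at 62.9 CPM. The V brains C20 and C49 were low for both genes, at 11.7 and 11.98 CPM for *LOC724187* and 33.2 and 26.3 CPM for *LOC408272*.

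Lists of genes matched by symbol were described by their counts, beside 202 called (2.24%) and 22.2% at an unadjusted p under 0.05 over all genes tested. None of the 13 mitochondrially encoded genes of the respiratory chain was called between SE and SF, but 9 had an unadjusted p under 0.05, all lower in SF, a direction in which 9.73% of all genes tested reached it. Against HS, 8 of the 13 were called in SF and 0 in SE. The median log2 difference of SE from SF was 0.82 over the list and 0.02 over all genes tested. *ND4*, a subunit of complex I, was at 44.3 and 34.1 CPM in SF, 54.2, 96.4, 55.7 and 73.6 CPM in SE and 63.1 to 121 CPM in HS. *COX1*, of complex IV, was at 7096 and 7900 CPM in SF and 7259 to 9540 CPM in SE, with overlap, and in the list summed over its members the groups also overlapped (8840 and 9518 CPM in SF, 9437 to 12004 CPM in SE). Of 8 nuclear-encoded genes of the same chain, 0 had an unadjusted p under 0.05, with a median of -0.02. Of 7 ribosomal protein genes 0 were called, and 5 had an unadjusted p under 0.05, all higher in SF, a direction in which 12.5% of all genes tested reached it, with a median of -0.26 for SE minus SF, and 4 of the 7 were called in SF against HS and 0 in SE. *RpL32* was at 168 and 168 CPM in SF, 128 to 147 CPM in SE and 119 to 148 CPM in HS.

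Among 11 immune genes, 1 (*Def1*) was called and 6 had an unadjusted p under 0.05, all higher in SF. They included *PGRP-S3*, a peptidoglycan recognition protein (52.2 and 85.6 CPM in SF, 14.2 to 21.8 CPM in SE, adjusted p = 0.0511). For *PGRP-S3*, HS (18.66 to 70.32 CPM, highest in H73) overlapped both SF and SE. Also among them was *cact1*, the Toll pathway inhibitor cactus (47.4 and 51.2 CPM in SF, 35.1 to 42.3 CPM in SE and 28.5 to 32.3 CPM in HS, adjusted p = 0.0522). *cact1* was called against HS in both groups. Of 14 odorant-binding and chemosensory protein genes 1 (*Obp14*) was called and 4 had an unadjusted p under 0.05, all higher in SF. Their median was -1.20 for SE minus SF. Summed over the list, HS (1193 to 8611 CPM) overlapped both SF (5340 and 10912 CPM) and SE (1261 to 3227 CPM). Of 9 antioxidant genes 0 were called and 4 had an unadjusted p under 0.05, all higher in SF than in SE. An example was *GstD1*, a glutathione transferase (34.9 and 50.8 CPM in SF, 11.7 to 14.8 CPM in SE). For *GstD1*, HS (13.95 to 57.3 CPM) overlapped both SF and SE, and H73 lay above both SF brains. Of the 13 neuropeptides, hormones and their receptors, 1 was called (*Akhr*) and 3 had an unadjusted p under 0.05. In the other lists of neuronal signalling 0 of 10 nicotinic acetylcholine receptor genes, 0 of 8 receptors of GABA, glutamate and histamine, 0 of 9 biogenic amine receptors and 0 of 20 synaptic genes were called, and 1, 0, 1 and 1 had an unadjusted p under 0.05. Against HS, the glutamate-gated chloride channel gene *GluCl*, the only one called of its list, was lower in both SF and SE (-0.43 and -0.41 on the log2 scale, adjusted p = 0.0235 for both). Of the 20 synaptic genes 2 were called in SF against HS, beside 7.93% of all genes tested. They were *Syt1* (synaptotagmin, the calcium sensor of transmitter release) and *AChE-2* (acetylcholinesterase), lower in SF (-0.37 and -0.38). Their SE minus HS had the same sign (-0.21 and -0.22) without a call. None of 6 heat shock genes reached an unadjusted p under 0.05.

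*JHBP-1* (chromosome 7, 1964713 to 1971819), a juvenile hormone binding protein, was at either a high or a low level in each brain. Its level was 437 and 1903 CPM in SF, and 4.37, 4.13, 5.33 and 5.41 CPM in S24, S27, S29 and S38, but the HS brains were split, with 551, 384 and 1453 CPM in H51, H73 and H75 and 5.41 and 3.93 CPM in H53 and H74. The log2 difference of SE from SF was -7.92 (SE of the estimate 1.801, adjusted p = 0.0494), and neither group passed the test against HS. All 5 V brains, SP16 and S83 were high (274 to 1992 CPM). The same 12 high and 6 low brains were seen for *LOC413833* and *LOC411564*, whose log2 CPM correlated with that of *JHBP-1* at 0.983 and 0.984 over the 18 brains, a description only, since the points fall into separate clusters. The muscle gene *TpnI* (troponin I) followed it at 0.95, with S38 intermediate at 27.7 CPM. Low levels of *JHBP-1* occurred in 2 HS brains and in the 4 SE brains of the comparison.

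**Figure D4:**
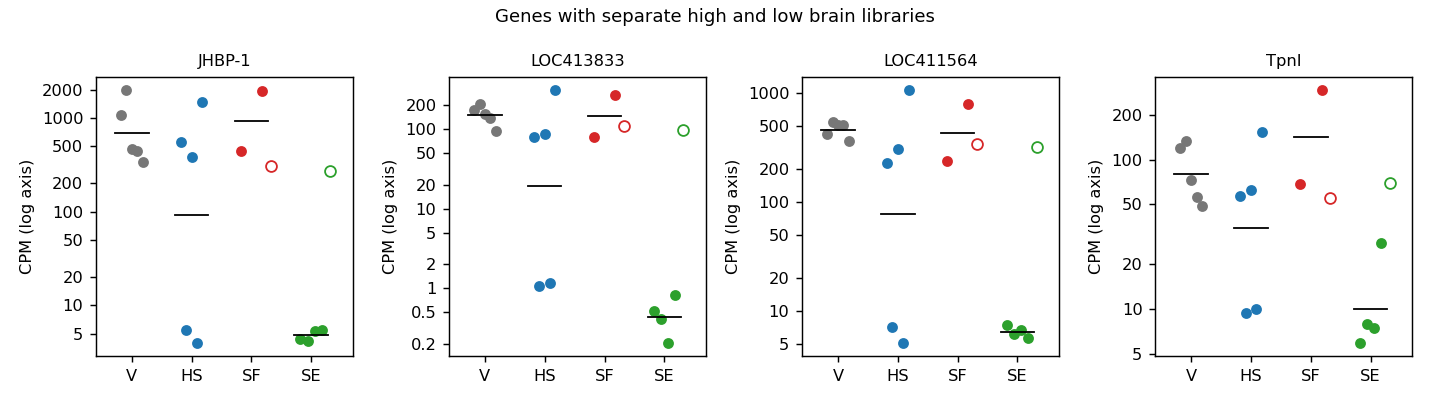
TMM-normalized CPM (y axis, log scale that does not start at 0) of *JHBP-1*, *LOC413833*, *LOC411564* and *TpnI* in 18 brain libraries by treatment (x axis), with 1 point per queen, the geometric mean of the filled points as a line, and open circles for SP16 and S83. For *JHBP-1* the 4 filled SE points and 2 HS points lie at 3.95 to 5.44 CPM, and all other points at or above 274 CPM.

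The pair of brains that the study left out was then used to look at the direction of the DEGs, with 1 library per group and so without a replicate check. By the study's account this pair held very few viral reads, unlike the brains of the comparison, so the check differs from it in this as well. Of the 163 SF-high DEGs, 37 (22.7%) were lower in S83 than in SP16, as in the other SE and SF brains, and 126 (77.3%) were higher, with a median log2 difference of 0.27. Over all genes tested 48.9% were lower and 51.1% higher in S83, with a median of 0.00. Of the 39 SE-high DEGs, 14 (35.9%) were higher in S83. Among the 79 genes raised in SF only, 13 (16.5%) kept their direction, and among the 32 lowered in SF only, 12 (37.5%). *LOC724250* and *Obp14* were among those that kept it, at 1.59 and 65.6 CPM in SP16 and 1.04 and 44.4 CPM in S83, but the values of SP16 were below those of both SF brains.

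**Figure D5:**
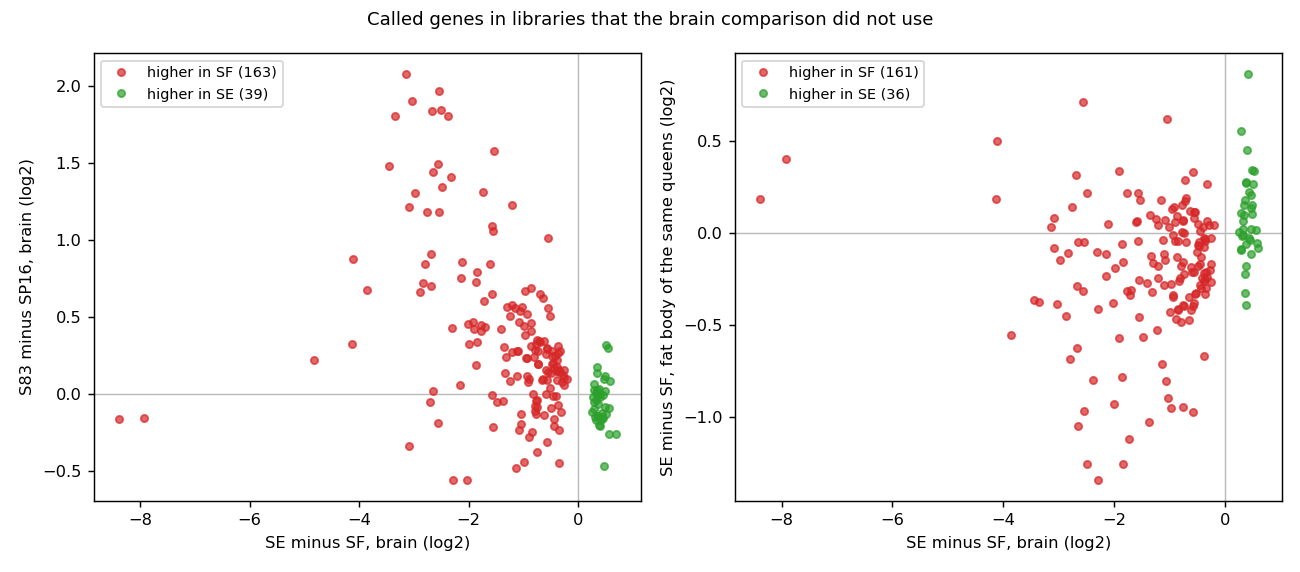
Log2 difference of SE from SF in brain (x axis of both panels) for the 202 DEGs, against S83 minus SP16 in brain (left, y axis) and against SE minus SF in the fat bodies of the same queens (right, y axis, for the 197 genes tested there), with 1 point per gene. Of the 163 SF-high genes (red), 126 lie above 0 on the left and 47 of 161 lie above 0 on the right.

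The fat bodies of the same 11 queens were compared in the same way. Of 8340 genes tested, 1 (0.012%) was called between SE and SF, and 462 (5.54%) had an unadjusted p under 0.05. Of 161 SF-high brain DEGs measured there, 114 (70.8%) were also lower in the SE fat bodies, beside 46.9% of the genes tested in both tissues, with a median log2 difference of -0.17, and 25 (15.5%) had an unadjusted p under 0.05, beside 5.55%. Of 36 SE-high brain DEGs, 22 (61.1%) were also higher in the SE fat bodies, beside 53.04%. The esterase gene *LOC410187* differed by -0.95 on the log2 scale (unadjusted p = 0.000544 by edgeR), *LOC411253* by -0.94 and *LOC410829* by -0.78, and for *Vg* the difference was -0.36. *Kr-h1* and *Per* were 0.96 and 0.86 higher in the SE fat bodies. None of these passed the adjusted threshold in fat body.

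Whether SE and SF differed more in 1 tissue than in the other was tested as an interaction over the 22 libraries, which called 0 of 9150 genes (0%), with 823 (8.99%) at an unadjusted p under 0.05. With the queen as a block there were also 0, with 890 at an unadjusted p under 0.05, while DESeq2 gave 79, 47 were called without queen H73 and 1 each without S27 and SP1. The smallest adjusted p was 0.0892, shared by *LOC102653655*, *LOC113218548* and *TpnCIIa*. Their log2 differences of SE from SF were -1.05, -2.56 and -1.92 in brain and 0.61, 0.71 and 0.34 in fat body.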

How the data were processed

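RNA from single dissected brains and fat bodies was sequenced by the study on 6 lanes. Per the labels and methods, reads were trimmed with cutadapt 1.8.3, aligned with HISAT2 2.1.0 and counted with HTSeq 0.9.1, and the authors deposited the raw counts of 12332 genes of Amel_HAv3.1 in 38 libraries, without normalization. The 5 rows that name no gene were kept out of library sizes and tests and gave the share of unaligned reads. All IDs matched RefSeq symbols of that assembly.

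The 11 brain libraries kept by the study were fitted in R 4.3.3 with edgeR 4.0.16 (filterByExpr with a minimum count of 20, TMM, quasi-likelihood test, 95% intervals), and adjusted p-values were computed over all genes tested. TMM-normalized CPM are given per queen. Values of SP16, S83 and V, and sums over lists, were scaled over all 18 brains. Precision is given as the range between libraries and the standard error of the estimate, and p-values measure the spread between queens raised as sisters.

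Genes were named from the 12 with the smallest p in each direction between SE and SF, the 10 in each direction of those changed in SF only, the 5 in each direction of those changed in SE only, the 3 members of each list with the smallest p, genes with opposite signs against HS, and the 3 with the smallest p of the interaction. All annotated DEGs, *COX1*, *GluCl*, *AChE-2*, the genes that resemble *JHBP-1*, the ratio of fat body to brain in V queens and the check in S83 and SP16 were added after values were seen. The libraries, gene lists and tests were chosen with earlier results of these data known. Brain and fat body of 1 queen come from the same animal, and their deviations from the group means correlated at -0.21 to 0.257 over genes.

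Alternatives were DESeq2 1.42.0, limma-voom (limma 3.58.1), other scalings and filters, other sets of libraries, covariates, and each library left out. Among the 73 pairs of libraries of the same tissue and treatment, none were copies of each other, and pairs across groups were not checked. The steps were tested on simulated data, with changes larger than the median of the calls here and only in genes with many reads. That test does not cover small changes or genes with few reads. Promoters, proteins and viral reads were not analysed here.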

Additional observations from a re-analysis of the deposited data

Results flagged for a closer look

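Each named gene was checked in the 4 SE and the 5 HS brains for a library far from the others of its group, over 226 groups, of which chance gives about 1 in 20. In 20 groups the gap of 1 library passed Dixon's critical value. In 9 of them H73 was the highest HS brain, at 8841 CPM for *Vg*, 139 for *A4*, 7.03 for *Akhr*, 1158 for *LOC724421*, 129 for *Per*, 70.3 for *PGRP-S3*, 8.77 for *Hex70a*, 107 for *CPR14* and 3.21 for *Apd-2*. H75 was the highest HS brain at 86.7 CPM for *LOC413583*, 17.1 for *LOC724295* and 115 for *TpnCIIIa*. H53 was the highest for *Dop1* (172 CPM) and the lowest for *Ppib* (95.8 CPM).

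Among the SE brains, S24 was the lowest for *LOC413416* (35.7 CPM), *LOC411811* (40.02 CPM) and *LOC724421* (78.4 CPM). S38 was the highest for *TpnCI* (15.8 CPM) and *GstD1* (14.8 CPM), and S27 for *Syt1* (203 CPM).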

How the results depend on the processing

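With SP16 in place of SP1, an alternative added after seeing the data, 50 of the 55 named DEGs lost the call, 3 changed direction (log2 fold change of Per -0.0559, log2 fold change of LOC102656171 -0.0788 and log2 fold change of LOC100577422 -0.0163) and 2 kept it. Under the other alternatives the named DEGs that were tested kept their direction (52 of 55 were tested with 20 reads in every library), but all 55 lost the call without SP76, with S83 and SP16 both added, and with the unaligned share as a covariate. The cause was not tested. The values that follow are numbers of genes called, for SE against SF (202), SF against HS (716), SE against HS (112), genes changed in SF only (111) and in SE only (12), in that order. DESeq2 gave 736, 1180, 487, 375 and 79. Adding S83 and SP16 gave 0 for each of the 5, with 670 genes at an unadjusted p under 0.05 between SE and SF, adding SP16 alone gave 4, 0, 19, 0 and 2, and SP16 in place of SP1 gave 2, 0, 13, 0 and 2. Leaving out 1 library each gave 0 to 353, 39 to 756, 42 to 132, 0 to 210 and 0 to 10.

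Adding S83 alone gave 123 between SE and SF, 0 between SE and HS and 0 in SE only. The unaligned share as a covariate gave 0 between SE and SF, 351 between SF and HS, and 0 in SF only and in SE only. Lane as a covariate gave 91 between SE and SF, 32 in SF only, 63 for SF against HS and 23 for SE against HS. Library sizes without TMM gave 789 between SE and SF, 346 in SF only (75 above HS and 271 below) and 19 in SE only. Fitting only SE and SF gave 348, robust quasi-likelihood, an alternative chosen after seeing the data, 119, and V brains in the fit 31 between SE and HS and 5 in SE only. The 1 call in fat body became 10 with DESeq2, 0 with library sizes or with all fat bodies, and 0 to 1 without 1 queen. The interaction gave 79 with DESeq2 and 0 to 47 without 1 queen, and 0 with the queen as a replicate block, which pairs the tissues of 1 animal. The difference in unaligned share became -1.61 percentage points with S83 and SP16. Each group comparison with SF rests on 2 libraries, and without 1 of them the other was assumed to vary like the other groups.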
